A study of Mus with 8 samples.

Results

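Lin28b, Igf2bp1, Igf2bp2, Igf2bp3 and Hmga2 are RNA-binding and chromatin genes of the fetal blood programme. These 5 genes of the 32285 in the count tables were chosen by name, with earlier results of these data known. They were read in 35549 cells with at least 7500 gene UMI (unique molecular identifiers, 1 per captured RNA molecule) and at most 10% mitochondrial UMI. Each gene name belonged to 1 row of the tables.

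The cells came from a CITE-seq study, which counts RNA and antibody tags in the same single cells. Blood progenitors were sorted from newborn mice (P0) and from mice 14 days old (P14) that were Ifnar+/- or Ifnar-/-, so that every group carried at least 1 mutant allele of the type I interferon receptor and none was wild type. The fractions were Lin-Kit+ cells (LK), a broad progenitor gate, and Lin-Sca1+Kit+ cells (LSK), a stem and early progenitor gate that lies inside the first. Each of the 8 combinations of age, fraction and genotype had 1 library. Libraries of different fraction or genotype were not taken as replicates of an age, so the comparisons are described without a test.

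The labels name no organ, do not give the number of mice per library and do not say whether LK and LSK cells came from the same mice. They write Ifnar without a subunit number. Libraries held 2411 to 5891 cells, 100486590 to 302507736 gene UMI and medians of 25597 to 46231 UMI per cell, and pairs of libraries shared 1 to 10 barcodes. Ifnar1 RNA stood at 14.7 to 36.9 CPM (UMI per 1000000 gene UMI) in every library, so its level does not check the genotype labels. The summed level of 7 interferon-response genes, chosen after values were seen (Ifit1, Ifit3, Isg15, Irf7, Oas2, Ifi44 and Rtp4), was 22.5 to 385 CPM in the Ifnar+/- and 1.12 to 10.1 CPM in the Ifnar-/- libraries. Kit stood at 130.5 to 231 CPM. Ly6a, which encodes Sca1, stood at 30.8 to 75.9 CPM in LSK and 1.54 to 11.2 CPM in LK libraries, and was lower in Ifnar-/- than in Ifnar+/- in all 4 pairs.

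LIN28B is an RNA-binding protein that blocks the maturation of let-7 microRNAs, and it is known for keeping blood progenitors in a fetal state. let-7 in turn represses a set of growth genes that includes Hmga2 and the Igf2bp family. The 3 IGF2BP proteins bind messenger RNAs through KH domains and affect their stability, transport and translation, and HMGA2 is a chromatin protein that binds AT-rich DNA and is known for supporting self-renewal of fetal stem cells.

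In the mouse genome build mm10, Lin28b lies at chr10:45376617-45486314 and Hmga2 at chr10:120361268-120476469. Igf2bp1 lies at chr11:95957163-96005944, Igf2bp2 at chr16:22059009-22163299 and Igf2bp3 at chr6:49085218-49215469. These positions are whole gene spans in the RefSeq annotation.

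The first comparison asked how far the 5 genes were lost between birth and day 14. Igf2bp1 was almost gone, Lin28b was 3.11- to 6.25-fold lower and Igf2bp2 was 2.37- to 4.17-fold lower at P14. Igf2bp3 and Hmga2 were lower by less than 2-fold in all 4 pairs of libraries.

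Lin28b, the let-7 inhibitor, stood at 21.8 CPM in P0 LK Ifnar+/-, 21.4 in P0 LK Ifnar-/-, 23.0 in P0 LSK Ifnar+/- and 24.1 in P0 LSK Ifnar-/-. At P14 it stood at 3.49 and 3.50 CPM in the LK libraries and at 7.28 and 7.74 CPM in the LSK libraries, Ifnar+/- first. The fractions were close at P0 and apart at P14. The level was 6.25-fold lower at P14 in LK Ifnar+/- (95% interval 5.61 to 6.98) and 6.10-fold lower in LK Ifnar-/- (5.58 to 6.69). It was 3.15-fold lower in LSK Ifnar+/- (2.94 to 3.39) and 3.11-fold lower in LSK Ifnar-/- (2.89 to 3.35). The intervals of the LK and LSK folds did not overlap within either genotype. No share of all genes is set beside this, so nothing particular to Lin28b is read from it. The part of the cell mixture in this gap was not tested. All intervals here are exact and cover counting error only, not the spread between mice.

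Among the 3 mRNA-binding paralogues, Igf2bp1 showed the widest change. It stood at 2.04 and 2.49 CPM in the P0 LK libraries and at 8.03 and 15.7 CPM in the P0 LSK libraries, Ifnar+/- first. At P14 the libraries in the same order held 0, 2, 4 and 1 UMI of this gene, against 616, 593, 1425 and 2146 UMI at P0. Against a floor of 3 counts in the library, the level was at least 68.2-fold lower in LK Ifnar+/-. The ratios in the other pairs rest on very few counts and were 187 (51.5 to 1545) in LK Ifnar-/-, 263 (102 to 965) in LSK Ifnar+/- and 1966 (352 to 77683) in LSK Ifnar-/-.

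Igf2bp2 stood at 17.2 and 14.5 CPM in the LK libraries of P0 and at 6.41 and 6.12 CPM in those of P14, Ifnar+/- first. In LSK it stood at 53.7 and 80.2 CPM at P0 and at 16.6 and 19.3 CPM at P14. Both fractions were lower at P14, and the P14 LSK level was near that of P0 LK. The folds were 2.68 (2.47 to 2.92) and 2.37 (2.21 to 2.56) in LK and 3.23 (3.08 to 3.38) and 4.17 (3.99 to 4.36) in LSK.

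Igf2bp3 was less than 2-fold lower at P14. It stood at 69.7 and 66.7 CPM in the LK libraries of P0 and at 48.1 and 44.8 CPM in those of P14, Ifnar+/- first. In LSK it stood at 87.7 and 66.9 CPM at P0 and at 54.1 and 49.5 CPM at P14. The folds were 1.45 and 1.49 in LK and 1.62 and 1.35 in LSK.

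Hmga2, the let-7 target among the 5 that encodes a chromatin protein, stood at 113.7 and 102.7 CPM in P0 LK and 101.5 and 94.99 in P14 LK. In LSK it stood at 330.2 and 331 CPM at P0 and at 229 and 220.2 CPM at P14. The folds were 1.12 and 1.08 in LK and 1.44 and 1.503 in LSK, so the 2 ages nearly met in LK.

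**Figure D1:**
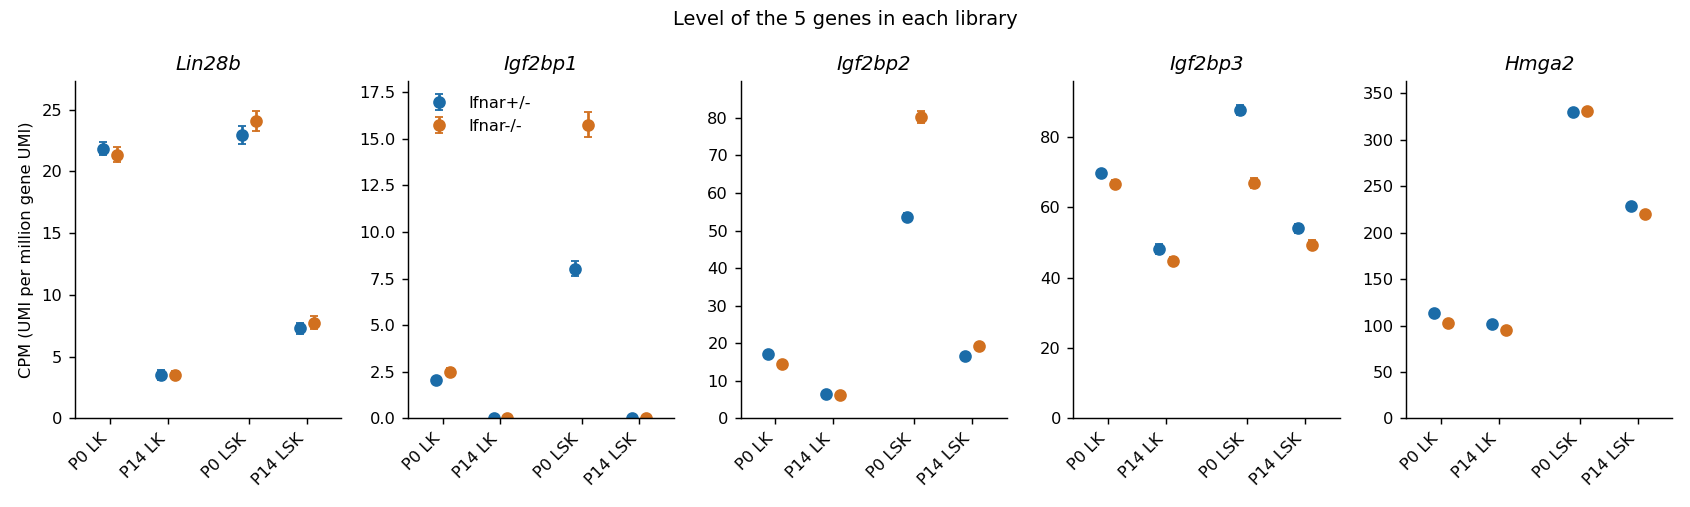
Level of the 5 genes in CPM (vertical axes, each starting at 0 and differing between genes) in the 8 libraries, with exact 95% Poisson intervals. Blue is Ifnar+/- and orange is Ifnar-/-; the P14 points of Igf2bp1 lie at or near 0, and Igf2bp1 and Igf2bp2 are the genes with the widest gap between genotypes, in P0 LSK.

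Counted with a threshold of 2-fold, 3 of the 5 genes (Lin28b, Igf2bp1 and Igf2bp2) were lower at P14 in each of the 4 pairs. Igf2bp1 had enough UMI to be counted only through P0, so its place in this count is not read as support, and Lin28b and Igf2bp2 are the genes counted at both ages. Over all genes with at least 50 UMI in 1 library of the pair, the share at least 2-fold lower at P14 was 3.70% in LK Ifnar+/-, 3.31% in LK Ifnar-/-, 4.18% in LSK Ifnar+/- and 7.02% in LSK Ifnar-/-. In all 4 pairs together, 157 of 13152 genes passed, or 1.19%. The 5 genes were chosen with earlier results of these data known, so their count beside these shares is a description only. The median log2 ratio of all genes was 0.13, 0.14, 0.07 and -0.06 in the same order. Igf2bp3 lay at percentiles 7.89, 6.67, 6.35 and 16.7 of these ratios and Hmga2 at 23.0, 25.0, 8.57 and 12.6, counted from the lowest. In either direction 9.29%, 9.39%, 7.86% and 9.71% of genes were 2-fold apart.

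The share of cells with at least 1 UMI was read after every cell was thinned to 7500 UMI. Lin28b was detected in 14.3% to 16.1% of cells of the P0 libraries and in 2.82% to 5.76% of the P14 libraries. Igf2bp1 was detected in 1.77% to 11.2% of P0 cells and in 0%, 0.0257%, 0.0433% and 0% of P14 cells. With 3 counts over the number of cells as the limit, the 2 shares of 0 allow up to 0.124% in P14 LK Ifnar+/- and up to 0.0684% in P14 LSK Ifnar-/-. This limits cells with a UMI at 7500 UMI, not cells that express the gene, and 0.0228% of cells of the second library had a UMI before thinning. Hmga2 was the most widely detected at this depth, in 43.5% to 87.2% of P0 cells and 44.7% to 74.4% of P14 cells. Without thinning Igf2bp3 lay above Hmga2 in the LK libraries, at 92.1% and 80.7% in P0 LK Ifnar+/-, and below it in the LSK libraries. In LK Ifnar-/- the share of Hmga2 was 43.5% at P0 and 44.7% at P14 after thinning. It was 73.4% and 70.6% without thinning, so the order of the ages depended on depth. Without thinning the Lin28b shares were 59.1%, 52.5%, 50.9% and 55.0% at P0 and 11.8%, 11.6%, 16.7% and 17.6% at P14.

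Free RNA was read in barcodes with 100 UMI or fewer. Lin28b stood there at 17.8 to 23.0 CPM at P0 and 3.63 to 4.80 CPM at P14, and Hmga2 at 68.0 to 279 and 60.7 to 165 CPM. Free RNA thus carried both genes in every library, and its part in the shares was not tested. Within a library the shares differed between lineages. In P0 LK Ifnar+/-, Igf2bp2 was detected in 42.8% of cells of the stem gate at a median of 24488 UMI and in 4.12% of the erythroid gate at 70160 UMI before thinning.

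Cells were then sorted into lineages by fixed RNA markers, to separate a change within a lineage from a change in the cell mixture. A gate needed at least 2 different markers, and is a range of marker counts and not a cell type. In all, 27151 cells (76.4%) were gated, of which 22.6% had exactly 2 markers. Gates of at least 50 cells formed 42 combinations of gate and library, and in all 42 the separate check markers stood above the mean of the other gates, by 1.59- to 193-fold. The lowest of these ratios was the stem gate of P14 LSK Ifnar+/-, with check markers at 304 CPM against 192 in the other gates. The neutrophil gates of LSK had 67.5% to 85.8% of cells at exactly 2 markers.

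At birth Lin28b was nearly even across lineages. Over 22 combinations of gate and P0 library it stood between 17.2 and 27.4 CPM, highest in the lymphoid gate (23.7 to 27.4), with the stem gate at 23.0 to 24.5 and the erythroid gate at 22.6 to 23.7. At P14 the lineages had separated. The stem gate kept 9.26 to 10.8 CPM in all 4 libraries, the lymphoid gate 5.004 to 5.88 and the erythroid gate of the 2 LK libraries 1.87 to 2.07.

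The Lin28b fold was lowest in the stem gate in 3 of 4 pairs. The exception was LSK Ifnar+/-, where the megakaryocyte gate gave 2.48 (1.68 to 3.71) beside 2.49 in the stem gate. Whether the change differs between gates was not tested. In the stem gate the level was 2.59-fold lower in LK Ifnar+/- (1.92 to 3.56), 2.27-fold in LK Ifnar-/- (1.72 to 3.02), 2.49-fold in LSK Ifnar+/- (2.20 to 2.82) and 2.52-fold in LSK Ifnar-/- (2.26 to 2.82). These 4 folds lie close together in both fractions. In the erythroid gate it was 12.7-fold lower in LK Ifnar+/- (9.74 to 16.7) and 11.1-fold lower in LK Ifnar-/- (9.24 to 13.3). These intervals were clear of those of the stem gate in the same pair, with no share of all genes set beside this. The monocyte gate of LK gave 6.10 (3.48 to 11.6) in Ifnar+/- and 11.8 (4.52 to 43.8) in Ifnar-/-, with 77 and 59 cells at P14.

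The lymphoid gate gave folds of 5.47 and 4.83 in LK and 4.303 and 4.43 in LSK, Ifnar+/- first. The neutrophil gate gave 5.96 and 5.77 in LK and, in LSK, 3.31 (2.46 to 4.54) in Ifnar+/- and 5.86 (3.91 to 9.04) in Ifnar-/-. The erythroid gate of LSK had under 50 cells at P14. Lin28b was at least 2-fold lower at P14 in 19 of 19 gate pairs, with log2 ratios from -3.65 to -1.17. Some of these pairs met the minimum of 50 UMI only through P0, where the gene is high, and are not read as support. In LK Ifnar+/- their P14 counts were 46 (lymphoid), 13 (monocyte) and 16 UMI (megakaryocyte). In LK Ifnar-/- they were 4 (monocyte) and 31 UMI (megakaryocyte). In LSK they were 38 UMI (megakaryocyte, Ifnar+/-) and 30 UMI (neutrophil, Ifnar-/-). Over all genes and gates, 2.41% of combinations were at least 2-fold lower.

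Igf2bp1 at birth was highest in the stem gate of all 4 libraries, at 10.9 to 18.6 CPM, and lowest in the erythroid gate of 3 of them, at 0.892 to 1.33 CPM in 2 LK libraries and 1.16 CPM in LSK Ifnar-/-. At P14 it was at 0 in every lymphoid, neutrophil, monocyte and erythroid gate. The stem gate held 0.148 CPM at most.

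Igf2bp2 was highest in the stem gate at both ages. It stood there at 65.0 to 95.8 CPM at P0 and 26.5 to 32.8 CPM at P14, and in the erythroid gate at 2.98 to 6.47 and 2.37 to 2.43 CPM. The megakaryocyte gate came next at P14, at 17.2 to 23.6 CPM, above the lymphoid gate at 4.21 to 7.21.

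The loss of Igf2bp2 had another order over lineages than that of Lin28b. In LK Ifnar+/- the fold was 9.01 in the monocyte gate (4.48 to 21.2), with 77 cells at P14. It was 5.36 in the lymphoid gate (4.07 to 7.17), 3.896 in the neutrophil gate (3.24 to 4.73), 2.79 in the stem gate (2.35 to 3.32), 2.17 in the megakaryocyte gate (1.73 to 2.74) and 1.88 in the erythroid gate (1.47 to 2.42). The lymphoid interval lies clear of the stem interval, and the stem, megakaryocyte and erythroid intervals overlap in part. No share of all genes is set beside this. In LSK Ifnar-/- the fold was 7.51 in the lymphoid gate (6.45 to 8.75) and 2.92 in the stem gate (2.75 to 3.098). Igf2bp2 was at least 2-fold lower in 17 of 19 gate pairs, and both exceptions were the erythroid gate, at log2 ratios of -0.90 and -0.86. Among the 17, the monocyte gates of LK met the UMI minimum only through P0, where the gene is high. They held 8 UMI in Ifnar+/- and 7 UMI in Ifnar-/- at P14 and are not read as support.

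Igf2bp3 and Hmga2 were highest in the lymphoid gate. Igf2bp3 stood there at 101.9 to 122.7 CPM at P0 and 67.4 to 75.3 CPM at P14, against 44.5 to 48.9 and 26.5 to 27.0 CPM in the erythroid gate. Hmga2 stood in the lymphoid gate at 386 to 472 CPM at P0 and 252 to 273 CPM at P14, with the stem gate at 276 to 353 and 185 to 210.2 CPM. In the erythroid gate Hmga2 was at 22.2 to 43.8 CPM at P0 and 18.3 to 18.4 at P14.

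Within gates both genes were lower at P14, but mostly by less than 2-fold. The log2 ratios of Igf2bp3 ran from -1.15 to -0.54 and those of Hmga2 from -1.06 to -0.21. For each, 1 of 19 gate pairs passed 2-fold, beside 2.41% of all gene and gate combinations. The call for Igf2bp3 was the megakaryocyte gate of LK Ifnar-/- and that for Hmga2 the monocyte gate of LK Ifnar+/-, which held 77 cells at P14.

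For Hmga2 the LK value changed with the weight given to each gate. Over whole LK libraries the log2 ratios were -0.16 and -0.11, but with every gate given the same weight they were -0.76 in Ifnar+/- and -0.57 in Ifnar-/-. Equal weights leave out ungated cells and count small gates like large ones. The part of the cell mixture was not tested. The erythroid gate, where Hmga2 is lowest, held 34.6% and 37.0% of P0 LK cells and 23.5% and 29.3% of P14 LK cells. Lin28b in Ifnar-/- also moved with equal weights, to -2.31 in LK and -1.90 in LSK, from -2.61 and -1.64. In Ifnar+/- all other settings of the processing lay between -2.88 and -2.345 in LK and between -1.76 and -1.43 in LSK.

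**Figure D2:**
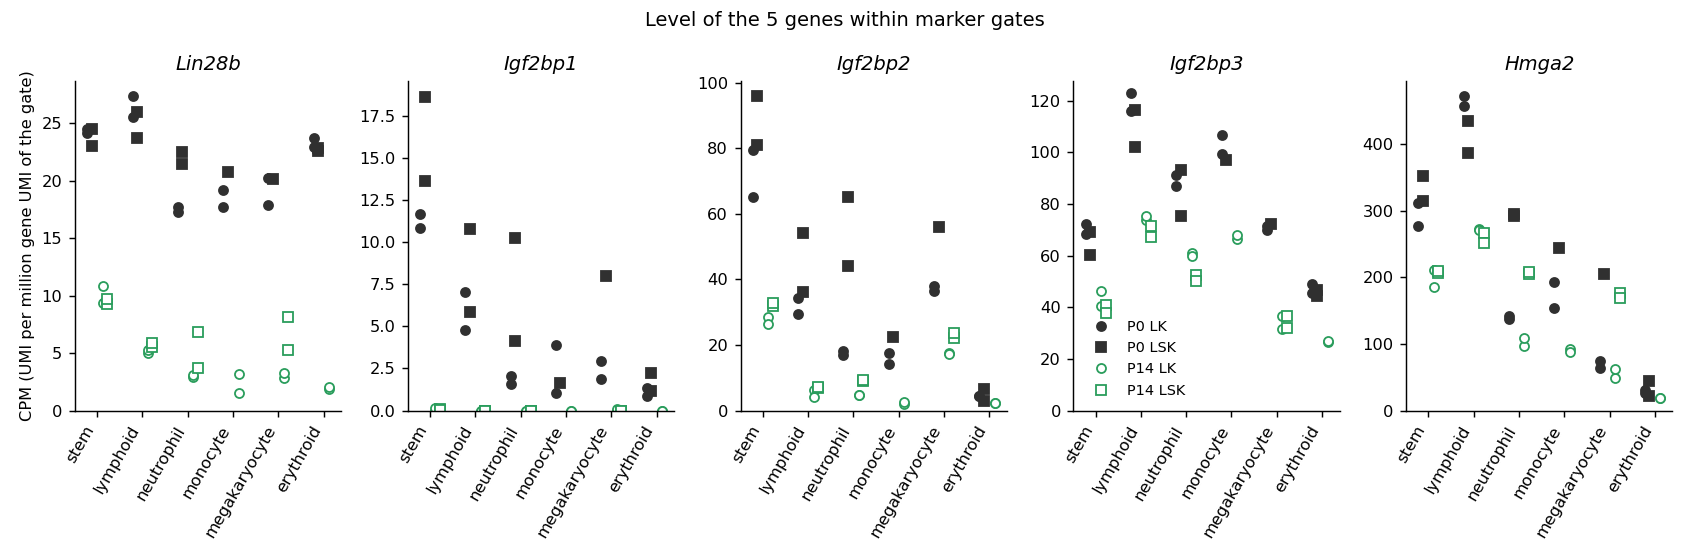
Level of the 5 genes in CPM (vertical axes from 0, differing between genes) in 6 marker gates, 1 point per library with at least 50 cells in the gate. Filled black symbols are P0 and open green symbols P14, circles LK and squares LSK; Lin28b is nearly level over gates at P0 and is highest in the stem gate at P14.

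**Figure D3:**
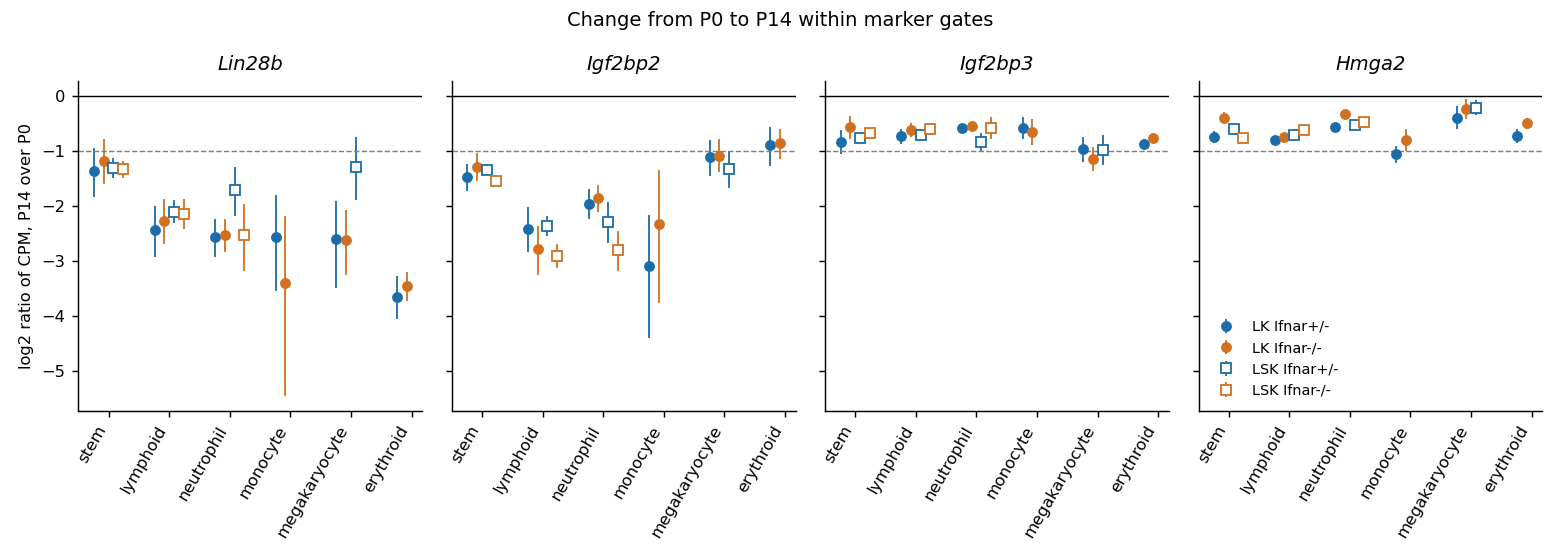
Log2 ratio of CPM, P14 over P0, within gates for the 4 genes other than Igf2bp1, with exact 95% counting intervals; the dashed line is a 2-fold loss. The stem gate of Lin28b lies between -1.36 and -1.17 and the erythroid gate at -3.65 and -3.46, while the Igf2bp3 and Hmga2 points lie mostly between 0 and -1.

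Markers of hepatocytes, a cell type that newborn blood-forming tissue can hold, were read in the same cells. The summed level of the 10 markers was 33.5 to 48.6 CPM at P0 and 32.8 to 51.1 CPM at P14, while Alb, Ttr, Fgb and Serpina1a were at 0 in all 4 P14 libraries. In cells without a UMI of any of the 10 markers, the log2 ratios of Lin28b from P0 to P14 were -2.88, -2.73, -1.43 and -1.57, against -2.64, -2.61, -1.66 and -1.64 in all cells. Igf2bp2 gave -1.29, -1.37, -1.66 and -1.86 in these cells and Hmga2 -0.53, -0.43, -0.64 and -0.58. These cells numbered 935 to 2284 per library, while whole libraries held 2411 to 5891. The summed level was as high at P14, with Alb, Ttr, Fgb and Serpina1a at 0, so a UMI of the list does not mark a hepatocyte. Counts were not thinned for this filter, so it also depends on depth. The part of hepatocytes in the ratios was not tested.

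The second comparison asked whether the receptor genotype went with another level of the 5 genes. None of the 5 tested at P0 and the 4 tested at P14 was 2-fold apart between Ifnar-/- and Ifnar+/-; Igf2bp1 had too few UMI at P14. The share of all genes at least 2-fold apart in either direction was 1.32% (LK) and 6.77% (LSK) at P0, and 0.702% (LK) and 0.673% (LSK) at P14. The libraries are the same as in the comparison of ages.

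Lin28b differed little, with log2 ratios (Ifnar-/- over Ifnar+/-) of -0.03 (LK) and 0.07 (LSK) at P0 and of 0.00 (LK) and 0.09 (LSK) at P14. Its sign in both P0 pairs changed with the scaling of the libraries, and with equal gate weights it was -0.28 in P14 LSK. Hmga2 lay between -0.15 and 0.00 in the 4 pairs, and its value of 0.00 in P0 LSK was -0.12 with TMM scaling (trimmed mean of M values). With equal gate weights Hmga2 was 0.09 in P14 LK in place of -0.10.

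The largest gaps were in P0 LSK. Igf2bp1 was 1.96-fold higher in Ifnar-/- (1.83 to 2.10), Igf2bp2 was 1.495-fold higher (1.45 to 1.54) and Igf2bp3 was 1.31-fold lower (1.28 to 1.35). The median log2 ratio of all genes in this pair was 0.15. The stem gate held 61.8% of cells in the Ifnar-/- library and 33.5% in the Ifnar+/- library, and the lymphoid gate 6.60% and 20.6%. With equal weight for every gate, the log2 ratio of Igf2bp1 was 0.66 in place of 0.97 and that of Igf2bp2 was 0.38 in place of 0.58. That of Igf2bp3 was -0.21 in place of -0.39, and -0.54 with median-of-ratios scaling. Summed endothelial markers stood at 137 CPM in Ifnar-/- and 90.5 in Ifnar+/-, mature lymphocyte markers at 21.6 and 41.5, stromal markers at 6.76 and 16.3 and macrophage markers at 10.2 and 10.0. Of the 6 markers in each of these lists, 1 mature lymphocyte marker (Cd3e) was at 0 in both libraries and no other was. The endothelial list holds Esam, which is also a check marker of the stem gate, so its sum need not come from endothelial cells. The mature lymphocyte sum was higher in P0 LK, at 76.1 CPM in Ifnar+/- and 82.1 in Ifnar-/-, with Cd3e and Ms4a1 at 0. That sum thus need not come from mature lymphocytes. The part of other cell types in the gaps was not tested.

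Igf2bp1 also differed between genotypes inside gates of P0 LSK, which are ranges of marker counts and not cell types. Igf2bp1 in the stem gate of P0 LSK stood at 18.6 CPM in Ifnar-/- and 13.6 in Ifnar+/-, a log2 ratio of 0.45 (0.32 to 0.59). In the lymphoid gate the levels were 10.8 and 5.87 CPM and the log2 ratio was 0.88 (0.53 to 1.21). The neutrophil gate of P0 LSK, at 10.2 and 4.14 CPM, was the only 1 of the 7 Igf2bp1 gate pairs with enough UMI that passed 2-fold. Over all genes and gates, 0.272% of combinations were at least 2-fold higher in Ifnar-/-. In P0 LK the stem gate gave -0.10 (-0.53 to 0.31) for Igf2bp1. The P0 LSK gates differed in make-up between genotypes. Cells with exactly 2 markers were 54.6% of the lymphoid gate in Ifnar-/- and 36.7% in Ifnar+/-. They were 85.8% and 75.2% of the neutrophil gate and 12.9% and 21.9% of the stem gate. The part of this make-up in the gaps was not tested. With 1 library of each genotype, these gaps cannot be told apart from a difference between the 2 groups of mice or the 2 sorts.

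**Figure D4:**
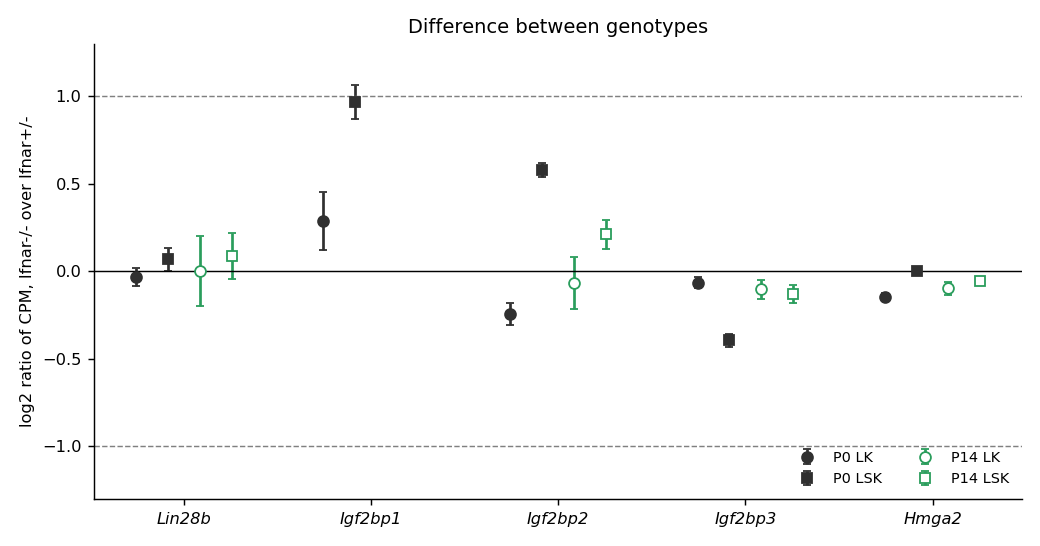
Log2 ratio of CPM, Ifnar-/- over Ifnar+/-, for each gene in the 4 pairs of libraries, with exact 95% counting intervals; dashed lines mark 2-fold. No point passes a dashed line, Igf2bp1 in P0 LSK comes nearest at 0.97, and Igf2bp1 at P14 is left out because it had too few UMI.

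The third comparison set the LSK fraction against LK. At P0, 3 of 5 genes were at least 2-fold higher in LSK in both genotypes, against 18.7% of all genes in Ifnar+/- and 28.0% in Ifnar-/-. These were Igf2bp1 (3.95- and 6.32-fold), Igf2bp2 (3.12- and 5.52-fold) and Hmga2 (2.90- and 3.22-fold). The median log2 ratio of all genes was 0.25 and 0.45, so LSK libraries lay above LK for most genes.

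At P14, 3 of the 4 genes with enough UMI were at least 2-fold higher in LSK, against 12.6% of all genes in Ifnar+/- and 16.0% in Ifnar-/-. They were Lin28b (2.08- and 2.21-fold), Igf2bp2 (2.59- and 3.15-fold) and Hmga2 (2.25- and 2.32-fold). The median log2 ratio of all genes was 0.19 and 0.24, and with TMM scaling only Igf2bp2 passed 2-fold. With 1 CPM added Lin28b no longer passed, at log2 ratios of 0.88 and 0.96. Lin28b had no such gap at P0, at 1.052- and 1.13-fold, and its sign there changed with the scaling. Igf2bp3 lay between 1.003- and 1.26-fold in the 4 pairs, and its sign changed with TMM scaling in all but P0 Ifnar+/-.

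For Igf2bp2 and Hmga2 the gap between fractions was smaller in the stem and lymphoid gates than over whole libraries, and remained in others. In the stem gate of Ifnar+/- at P0, Igf2bp2 stood at 79.4 CPM in LK and 80.9 in LSK, and Hmga2 at 311 and 315. In Ifnar-/- at P0 the stem gate held Igf2bp2 at 65.0 CPM in LK and 95.8 in LSK. With equal weight for every gate, 0 of the genes were 2-fold apart between the fractions in any pair. Over all genes and gates, 2.93% of combinations were at least 2-fold higher in LSK. For Hmga2 this held in 6 of 18 gate pairs, among them the megakaryocyte gate, at 64.5 CPM in LK and 204.5 in LSK of P0 Ifnar+/-.

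Surface tags gave a second readout, of protein in the same cells. It is not independent of the stem gate, whose RNA markers include Procr (CD201) and Slamf1 (CD150). Cells of each library were ranked by the count of a tag and split into 3 groups of equal size, low, middle and high. CD201 and CD150 are carried by blood stem cells, and CD48 by more advanced progenitors. In P0 LSK Ifnar+/-, Igf2bp1 stood at 15.4 CPM in the CD48-low group and 5.12 in the CD48-high group, and at 4.94 CPM in the CD201-low group and 12.6 in the CD201-high group. Igf2bp2 moved the same way, at 81.0 and 43.7 CPM for CD48 and 42.0 and 69.0 CPM for CD201.

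Igf2bp3 moved the other way. It stood at 63.1 CPM in the CD48-low group and 97.4 in the CD48-high group, and at 95.6 CPM in the CD201-low group and 75.1 in the CD201-high group. The sign of these differences was the same in all 4 LSK libraries for Igf2bp2 and Igf2bp3.

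Lin28b was level over CD48 and CD201 at P0 and not at P14. In P0 LSK Ifnar+/- it stood at 23.3 CPM in the CD201-low group and 22.7 in the CD201-high group, and in P14 LSK Ifnar+/- at 5.81 and 9.24 CPM. The log2 ratio for CD201 was -0.04 and -0.08 at P0 and 0.67 (0.44 to 0.90) and 0.69 (0.46 to 0.93) at P14. For CD48 it was -0.03 and -0.01 at P0 and -0.71 and -0.45 at P14. For Igf2bp2 the CD201 ratio was 0.72 and 0.56 at P0 and 2.17 and 2.06 at P14. Cells of the CD48-high group had more UMI, with medians of 43201 against 22718 in P0 LSK Ifnar+/-, while those of the CD201-high group had fewer, at 28636 against 34564. The part of depth was not tested.

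**Figure D5:**
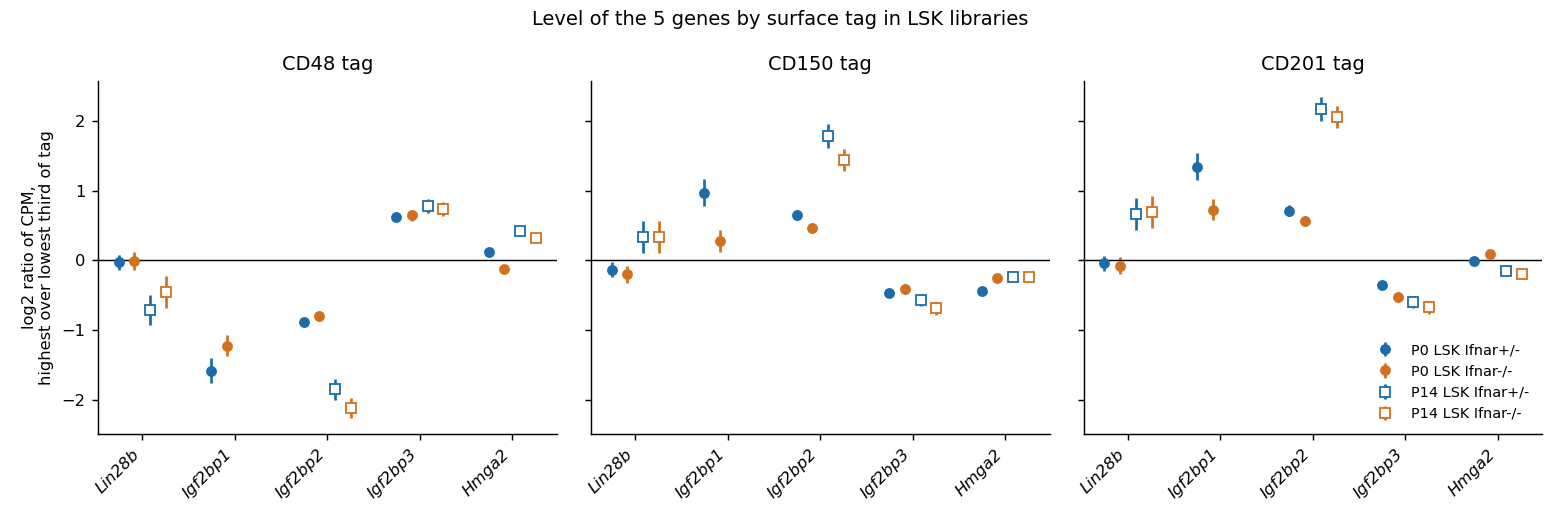
Log2 ratio of CPM between the high and the low group of cells by CD48, CD150 or CD201 tag in the 4 LSK libraries, with exact 95% counting intervals. Igf2bp1 (P0 only) and Igf2bp2 lie on the side of CD48-low and CD201-high cells and Igf2bp3 on the other. For CD48 and CD201, Lin28b leaves the zero line only at P14. The CD150 values are drawn without a reading.

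Fewer of the genes were detected per cell at P14. After thinning, none of the 5 was detected in 25.4% and 30.0% of LK cells at P0 and 38.2% and 38.5% at P14, Ifnar+/- first. In LSK these shares were 4.76% and 4.38% at P0 and 15.9% and 15.3% at P14. Exactly 3 were detected in 20.9% and 22.4% of LSK cells at P0 and in 3.71% and 3.72% at P14. All 5 were detected together in 3 and 9 cells of the P0 LSK libraries and in 0 cells elsewhere.

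Igf2bp1 and Igf2bp2 were found in the same cell of P0 LK Ifnar+/- 2.20 times as often as the product of their shares gives, and 2.12 times in P0 LK Ifnar-/-. Within the stem gate of the same libraries the ratios were 1.39 (19 cells) and 0.85 (8 cells). In P0 LSK they were 1.46 and 1.13 over all cells and 1.29 (111 cells) and 1.046 (146 cells) in the stem gate. Lin28b with Hmga2 stood between 1.01 and 1.07 in the 4 P0 libraries, at 1.35 (41 cells) and 1.54 (90 cells) in P14 LK and at 1.06 and 0.98 in P14 LSK. In the neutrophil gates of P0 LK it was 1.18 and 1.22. These ratios are descriptions of sparse counts.

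Other genes of the pathway were read from lists. Of 28 described let-7 targets other than the 5 genes, 24 or 25 were tested, and 2, 1, 2 and 3 were at least 2-fold lower at P14 in the 4 pairs, with none higher, beside 3.70%, 3.31%, 4.18% and 7.02% of all genes. The list was described and not tested. The medians were 0.02, -0.13, -0.01 and -0.31 beside the all-gene medians of 0.13, 0.14, 0.07 and -0.06, and 0 targets passed in all 4 pairs. Among those with the most UMI were Cdk6 and Ccnd2, which drive entry into the cell cycle. Their log2 ratios were 0.34, 0.38, 0.03 and 0.58 for Cdk6 and 0.29, 0.45, 0.43 and 0.41 for Ccnd2.

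The targets past 2-fold in any pair were Hmga1, Arid3a, Nr6a1 and Stard13, named after their values were seen. Hmga1 is the paralogue of Hmga2. It stood at 128.8 and 100.1 CPM in P0 LK and 52.9 and 44.4 in P14 LK, with log2 ratios of -1.28 and -1.17 in LK and -0.81 and -0.83 in LSK.

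Of 22 listed names for genes of let-7 processing and decay, 19 were found and 0 were at least 2-fold lower. The others (Zcchc11, Zcchc6 and Papd4) are older names of Tut4, Tut7 and Tent2, which were found. Ago4, an Argonaute gene named after its values were seen, was higher in both LK pairs (log2 ratios 1.20 and 1.16), where 5.60% and 6.08% of all genes were 2-fold higher. Among those with the most UMI, Hnrnpa1 gave 0.05, 0.06, -0.20 and -0.24, Ddx5 gave 0.28, 0.35, 0.20 and 0.15, and Ddx17 gave 0.18, 0.32, 0.31 and 0.09. The 3 let-7 host transcripts with enough UMI did not pass 2-fold. Mir99ahg gave 0.54, 0.66, 0.21 and -0.19, Wdr82 gave 0.24, 0.31, 0.30 and 0.07, and Huwe1 gave 0.01, 0.17, 0.03 and -0.05. A host transcript is not the microRNA, which a 3' library of this kind does not count.

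Of 19 genes for partners and bound RNAs of the IGF2BP proteins, 17 or 18 were tested, and 2 passed 2-fold toward lower levels in each of the pairs, beside 3.31% to 7.02% of all genes. Both are imprinted RNAs. Igf2, a growth factor, gave log2 ratios of -3.08, -2.30, -3.74 and -5.22, and H19, a noncoding RNA, gave -5.06, -2.72, -4.86 and -6.13. Igf2 had 4, 7, 14 and 19 UMI at P14 and H19 had 11 in LK Ifnar+/-. These calls met the minimum of 50 UMI only through P0, where the gene is high, and are not read as support. Of the 2 calls in each pair, 0, 1, 1 and 1 had 50 UMI at P14 as well. Ptgs2, which encodes a prostaglandin synthase and was named after its values were seen, had log2 ratios of 1.64 and 3.06 in the LSK pairs, where 3.67% and 2.69% of all genes were at least 2-fold higher. It had 31 and 12 UMI at P0 and 72 and 95 at P14, so it met the minimum only through P14. The medians of the list were 0.05, 0.13, 0.04 and 0.03.

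Of 18 fetal and imprinted blood cell genes, 8, 7, 9 and 11 passed 2-fold toward lower levels at P14 in the 4 pairs, with 13 or 14 tested and medians of -1.35, -1.09, -1.96 and -2.87. The share of all genes was 3.70%, 3.31%, 4.18% and 7.02%. Of these calls 4, 5, 6 and 8 had at least 50 UMI at P14 too, and the others met the minimum only through P0. Of the 13 tested in every pair, 7 passed each time, beside 1.19% of all genes. Of these 7, Dlk1, Cdkn1c, Meg3 and Hba-a1 had 50 UMI at P14 in all 4 pairs, while Igf2 did in none and Peg3 did not in LK (39 and 44 UMI). Nothing particular to the list is read from these counts or medians. Beside Igf2 and H19, which both lists hold, the 7 were Dlk1 (log2 ratios -4.11, -4.32, -4.41 and -4.90), Peg3 (-2.31, -2.65, -2.39 and -2.73), Cdkn1c (-1.16, -1.09, -1.21 and -2.03), Meg3 (-2.69, -2.85, -2.39 and -4.11) and Hba-a1 (-1.82, -2.42, -1.62 and -3.01). Dlk1 encodes a Notch family surface protein, Cdkn1c a cell cycle inhibitor and Hba-a1 an alpha globin. The place of Hba-a1 on the list is not read as a sign that it is fetal or imprinted. The listed globins Hbb-bh1, Hbb-y and Hba-x had too few UMI to be tested in any pair. The 2 alpha globin genes are near-identical copies, so counts of Hba-a1 are uncertain. Lin28b stood at -2.64, -2.61, -1.66 and -1.64 on the same scale.

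Patterns over the 42 combinations of gate and library were compared by Pearson correlation of log2(CPM + 1), as a description over units that share libraries and depth, among 14690 genes. The genes most like Lin28b were Scd2 (r = 0.98), Srebf1 (0.91) and Insig1 (0.88), and those most like Igf2bp1 were H19 (0.93), Dlk1 (0.92) and Pfkl (0.90). Igf2bp2 was closest to H1f0 (0.96), Jam3 (0.94) and Nisch (0.94). Igf2bp3 was closest to Gm17018 (0.92), Cysltr1 (0.90) and Mdh1 (0.89), and Hmga2 to Dusp5, Marcks and Gpr171 (each 0.98). Among the 5 genes themselves, Lin28b was closest to Igf2bp1 (0.80) and least like Hmga2 (0.34) over both ages pooled. Igf2bp1 had no UMI in 16 of the 20 units of P14, so its pooled values largely set P0 against P14. No value within P14 is given for Igf2bp1. Lin28b stood at 17.2 CPM or more in every P0 unit and at 10.8 CPM or less in every P14 unit. The pooled values of Lin28b, those with Scd2, Srebf1 and Insig1 among them, thus also largely set P0 against P14. Over the units of P14 Lin28b was closest to Igf2bp2 (0.77) and Hmga2 (0.74), with Igf2bp3 at 0.029. Over the 22 units of P0 it was closest to Igf2bp1 (0.48) and least like Igf2bp3 (-0.057), and Igf2bp1 was closest to Igf2bp2 (0.84).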

How the data were processed

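Deposited raw UMI counts per gene and barcode, with no cell filter, were used for 8 libraries, 1 per group, over 32285 genes and 10 antibody tags. Per the submitters' processing notes the authors used Cell Ranger 6.0.1 and mm10, while the file headers name Cell Ranger 4. Per the labels the libraries were 10x Chromium 3' libraries. The 5 genes and all lists were chosen with earlier results of these data known.

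UMI were summed over cells of a library or gate and divided by the total gene UMI (CPM). Ratios were taken after adding 0.5 counts, among genes with at least 50 UMI in 1 library of the pair, and called at 2-fold. Level and share intervals are exact Poisson and Clopper-Pearson 95% intervals, and ratio intervals are exact conditional binomial ones. The ratio script was tested on simulated data. Cells were thinned to 7500 UMI for shares and gates. A gate took the class with the most of its 6 markers, ties left ungated; gates under 50 cells were not used. Doublets were kept in the main values, since Scrublet (in scanpy 1.11.5) marked 0 to 162 barcodes per library at its own threshold. TMM factors came from edgeR 4.0.16. Tag, G2M and per-cell detection readings were planned for P0 and extended to P14 after seeing the data. Named genes were the 5, every list gene past 2-fold in all 4 age pairs, otherwise the 3 of a list with the most UMI, and the 3 most alike. 1 gene that this rule names is not reported here. Alternatives were other cell limits, doublets removed, other scalings, 1 CPM added, 5% free RNA subtracted, equal gate weights, other gate limits and a threshold of 1.5-fold.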

Additional observations from a re-analysis of the deposited data

Results flagged for a closer look

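Igf2bp2 differed between genotypes in opposite directions in the 2 fractions at P0, and the counting intervals of both ratios lay away from 0. The log2 ratio, Ifnar-/- over Ifnar+/-, was -0.24 (-0.31 to -0.18) in LK and 0.58 (0.54 to 0.62) in LSK, so the effect in LSK minus that in LK was 0.82. The difference was not tested, since each group had 1 library. Among the ratios of all genes Igf2bp2 lay at percentile 12.8 in LK and 86.5 in LSK, counted from the lowest. The medians of all genes were -0.03 and 0.15. No share of all genes with opposite directions is set beside this, so nothing particular to Igf2bp2 is read from it. Inside the stem gate the ratios were -0.29 (-0.45 to -0.13) in LK and 0.24 (0.19 to 0.30) in LSK. Inside the lymphoid gate they were -0.23 (-0.47 to 0.01) and 0.59 (0.44 to 0.73). At P14 the library ratios were -0.07 in LK and 0.21 in LSK.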

How the results depend on the processing

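With 1 library per group, counting error is small but the spread between mice is unknown. The 4 age pairs, matched on fraction and genotype, were described one by one. A fit over the 8 libraries with age, fraction and genotype as terms was not run, since it would take libraries of other fractions and genotypes as replicates of an age. At the 2-fold threshold the alternatives kept 3 genes lower at P14 in every pair; a threshold of 1.5-fold gave 4 in both LSK pairs. Between genotypes, a threshold of 1.5-fold gave 1 gene in P0 LSK in place of 0. Between fractions, equal gate weights gave 0 genes in all 4 pairs in place of 3, and TMM and median-of-ratios scaling each gave 1 in both P14 pairs; 1 CPM added gave 2 there. Within gates, a need for 3 markers gave 9 gate pairs for Igf2bp1 (of 9 tested) in place of 14, 15 for Igf2bp2 (of 18) in place of 17 (of 19) and 3 for Igf2bp3 in place of 1. Igf2bp1 pairs pass the UMI filter only through P0, so their count supports nothing; it was 13 of 14 with 1 CPM added. Removing doublets gave 2 for Igf2bp3, and gates of at least 200 cells gave 0 for Hmga2. A threshold of 1.5-fold gave 15 for Igf2bp3 and 10 for Hmga2. The share of all genes past 1.5-fold was not counted, over libraries or gates, so nothing is read from the counts at that threshold. Counting all genes with at least 10 UMI gave 2326, 2253, 1997 and 2309 genes 2-fold apart by age, against 1302, 1286, 1101 and 1364. By genotype it gave 543, 1726, 461 and 383, against 185, 957, 92 and 91. TMM moved the all-gene median by -0.17, -0.18, -0.10 and 0.02 by age and by -0.25, -0.42, -0.18 and -0.22 between fractions. The use of cells without hepatocyte markers was chosen after seeing the data.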

Other observations

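Igf2bp1 was not alone in being higher in P0 LSK Ifnar-/-. Among the imprinted genes that were lower at P14, and chosen here after their values were seen, H19 stood at 66.3 CPM in Ifnar-/- and 18.5 in Ifnar+/-, Meg3 at 118 and 30.5, Igf2 at 5.82 and 1.48 and Cdkn1c at 80.8 and 38.7. In P0 LK the values in the same order were 3.04 and 3.82 CPM for H19, 5.68 and 5.37 for Meg3, 0.243 and 0.377 for Igf2 and 11.3 and 10.9 for Cdkn1c. The stem gate held 61.8% of P0 LSK cells in Ifnar-/- and 33.5% in Ifnar+/-.

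Cells with at least 3 UMI of 20 G2M genes after thinning were set against the rest, as a range of counts and not a cell cycle phase. They numbered 4804 of 5891 cells in P0 LK Ifnar+/- and 2520 of 4615 in P14 LSK Ifnar+/-. The log2 ratio of Lin28b, these cells over the rest, was 0.02 and -0.07 in LK and -0.05 and -0.10 in LSK at P0, Ifnar+/- first. At P14 it was -0.92 (-1.25 to -0.58) and -1.05 (-1.32 to -0.77) in LK and -0.62 (-0.80 to -0.43) and -0.34 (-0.53 to -0.15) in LSK. Within the stem gate of P14 it was -0.63 (-0.96 to -0.31) in LSK Ifnar+/-, and the intervals of the other 3 libraries reached over 0. In LK of P14 it was -0.95 (-1.67 to -0.15) and -1.23 (-1.84 to -0.57) in the neutrophil gate and -1.36 (-2.21 to -0.37) and -1.19 (-1.81 to -0.47) in the erythroid gate, and -1.23 (-2.12 to -0.27) in the lymphoid gate of Ifnar+/-. In LSK Ifnar+/- the megakaryocyte gate gave -1.71 (-2.73 to -0.72), from 17 UMI in cells with at least 3 G2M UMI and 21 in the rest. In the same order, the lymphoid value of LK Ifnar+/- rests on 28 and 18 UMI and its erythroid value on 42 and 15. These counts lie under the minimum of 50 UMI used for pairs of libraries, so these values are not read as support. The intervals of the other P14 gates tested reached over 0. Among them, the megakaryocyte gate of LK Ifnar+/- pointed the other way, at 1.70 (-0.46 to 7.63) from 15 and 1 UMI. Igf2bp2 in the stem gate lay between -0.87 and -0.22 in the 8 libraries. In the lymphoid, neutrophil and LSK megakaryocyte gates of P14 the intervals of Igf2bp2 reached over 0, and the value was 0.38 (-0.28 to 1.14) in the megakaryocyte gate of LSK Ifnar+/-. The part of the lineage mixture and of depth in these values was not tested.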
